A study of Mus musculus with 4 samples.

Results

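Mouse primary osteoblasts given LOXL2 were compared with the same kind of cells left untreated. The comparison took the 2 arrays without BMP2 from a series of 4, in which BMP2 (200 ng/ml or none) was crossed with LOXL2 (4 µg/ml or none) for 72 h in medium with 10% FBS. Their labelled cell type is pre-osteoblasts, and no strain or age is given. Total RNA (100 ng) was amplified, labelled with Cy3 and hybridised to a single-colour Agilent array, 1 array per treatment. The series was made to look for regulators of osteoblast differentiation driven by BMP2. The arrays treated with BMP2 alone and with BMP2 plus LOXL2 supplied a separate LOXL2 difference that shares no array with the first. The 4 arrays share 1 slide and 1 scan time, and treatment cannot be told apart from position on the slide. Separate cell preparations are not stated. No treatment was replicated, so a difference between the untreated and LOXL2 arrays has no test.

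LOXL2 is a secreted enzyme of the lysyl oxidase family. These copper-dependent amine oxidases oxidise lysine residues in collagen and elastin, after which the chains become cross-linked. In bone, such cross-links give the collagen matrix its tensile strength before and during mineralisation. BMP2 is a growth factor that drives mesenchymal cells towards bone and cartilage.

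Of 55681 probes, 32779 were well above background on both arrays, and these covered 15992 genes with a symbol. A level below is the log2 intensity minus the 75th percentile of that array, and a difference is the LOXL2 level minus the untreated level, so that 1 is a doubling. The 75th percentile was an intensity of 710.5 on the untreated array and 723.7 on the LOXL2 array. The level of a gene is the median over its probes, and levels of different genes are not compared. Replicate spots of a probe on 1 array had a median SD of 0.07, which is technical error within an array and not error between cultures. Defining osteoblast genes were measured on both arrays, with levels of 8.58 and 8.59 for the type I collagen chain Col1a1 and 3.21 and 3.31 for alkaline phosphatase, Alpl (untreated and LOXL2).

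Transcript levels with and without LOXL2 were close. The arrays correlated at r = 0.9976 across probes (a description, since probes are not replicates), the median difference over genes was 0.00, and 97.6% of probes lay within 1.5-fold. At least 1.5-fold higher with LOXL2 were 398 probes, which is 1.21% of those measured, and at least 1.5-fold lower were 401, or 1.22%. At least 2-fold there were 45 higher (0.137%) and 80 lower (0.244%). Counted by gene, 109 were at least 1.5-fold higher (0.682%) and 146 lower (0.913%). The pair of arrays with BMP2 gave 318 probes at least 1.5-fold higher with LOXL2 (0.987% of 32217) and 331 lower (1.03%).

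The large differences were concentrated among dim probes. With the probes divided by mean intensity into 10 bins of equal size, the 3 dimmest bins held 706 of the 799 past 1.5-fold, which is 88.4%, and the 5 brightest held 25. The SD of the difference over probes was 0.36 in the dimmest bin and 0.09 in the brightest. With normexp background correction, which compresses dim signals, the counts were 32 higher and 54 lower. Of the probes past 1.5-fold, 49.8% were higher, against 79.4% when the arrays were scaled on control RNA.

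**Figure D1:**
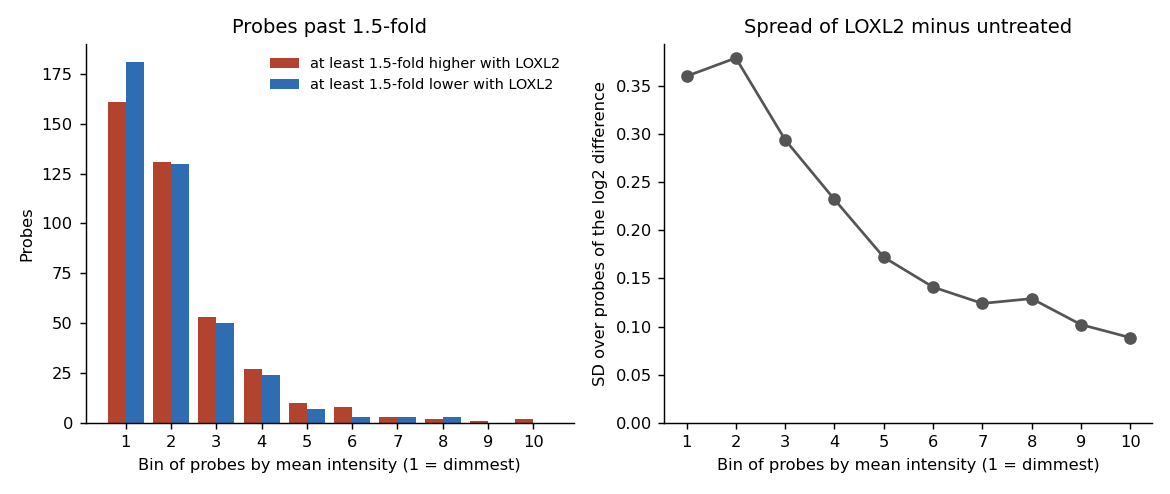
Probes past 1.5-fold (left, number of probes, higher in red and lower in blue) and the SD over probes of the log2 difference LOXL2 minus untreated (right), in 10 equal bins of the 32779 probes ordered by mean intensity. The dimmest bin held 161 higher and 181 lower, the brightest 2 and 0.

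A small set of probes printed at 10 spots each measured the difference more finely. Of these 299 probes, with a median standard error over spots of 0.03, 0 differed by 1.5-fold and 21 by 1.2-fold or more (among all probes, 8.01% were at least 1.2-fold higher and 7.51% lower). The largest was Slc5a3, the sodium-coupled transporter of myo-inositol, at 0.54 ± 0.04 (difference ± SE over spots). Pck2, the mitochondrial form of phosphoenolpyruvate carboxykinase, followed at 0.48 ± 0.03. The lowest was Chgb, a granin of secretory granules, at -0.45 ± 0.07. On the scale of the spots, 93 of the 299 differed by over 3 standard errors. Control RNA added during labelling, read by 8 probes above background, was lower on the LOXL2 array by a median of 0.15 (-0.26 to -0.06), against 0.03 higher in the BMP2 pair. On each of these 8 probes the untreated array had the highest level of the 4 arrays. Scaling on that RNA moves the median of all genes from 0.00 to 0.13, so differences between -0.13 and 0 given here turn positive under it.

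Agreement between different probes of a gene was the available check. Among 4686 genes with 2 or more probes above background, 2 had every probe at least 1.5-fold higher (0.0427%) and 0 had every probe at least 1.5-fold lower, while 134 (2.86%) had at least 1 probe past 1.5-fold. The count with every probe higher was 1 with normexp or with a signal of at least 50 required, 4 with quantile normalization and 7 on control RNA scaling, with 0 lower in each. With no filter on dim probes it was 24 higher and 21 lower. Slc6a9, the plasma membrane glycine transporter GlyT1, stood at 4.29 untreated, 4.97 with LOXL2, 5.69 with BMP2 and 5.92 with both. It was thus lowest on the untreated array, and the LOXL2 difference was 0.68 without BMP2 and 0.23 with it. Its probes, at chr4:117541842-117541901 and chr4:117541851-117541910 (mm9, plus strand), gave 0.71 and 0.66 but share 51 bases, so they are nearly 1 measurement. Kcnq1ot1, a long noncoding RNA that silences imprinted genes around Kcnq1, stood at -3.70 untreated, -2.96 with LOXL2, -3.61 with BMP2 and -3.36 with both. Its difference of 0.74 came from separate probes at 0.61 and 0.86. Its signal was dim, with intensities of 65.2 untreated and 106 with LOXL2, and with normexp correction the difference was 0.30, which is under 1.5-fold.

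Most single-probe extremes were not shared by the gene's other probe. A difference of 2-fold or more was seen at a probe of 23 genes with 2 or more probes, and for 15 of them another probe was within 1.2-fold. For none of the 23 was another probe past 1.5-fold in the same direction. Aars, the alanyl-tRNA synthetase, gave 4.04 at a probe that read 23.1 untreated and 387 with LOXL2 in intensity, and 0.32 at a probe that read 11800 and 15000. The splicing factor gene Snrnp27 gave -1.74 at its dim probe and 0.01 at its bright one. Over all 4686 genes the differences at a pair of probes correlated at r = 0.18, and over the 1387 genes with both probes above the 75th percentile at r = 0.55. Both are descriptions across genes, which share the same arrays. All probes had the same sign in 55.2% of the 4686 genes.

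**Figure D2:**
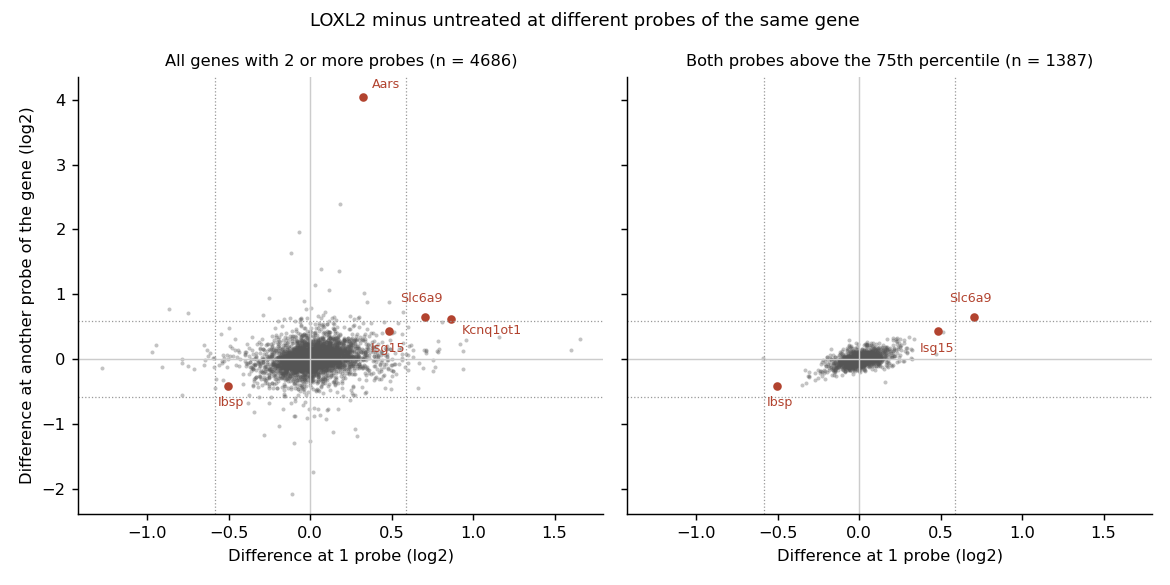
Log2 difference LOXL2 minus untreated at one probe of a gene (horizontal) against another probe of the same gene (vertical), for all 4686 genes with 2 or more probes (left) and for the 1387 with both above the 75th percentile (right). Dotted lines mark 1.5-fold. Slc6a9 and Kcnq1ot1 lie beyond both upper lines, while Aars is far out on one axis only.

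Few genes with levels at or above the 75th percentile on both arrays, of which there were 7483, were past 1.5-fold. Besides Slc6a9, the interferon-induced gene Ifi44 was higher, at 0.47 untreated, 1.23 with LOXL2, 1.88 with BMP2 and 1.86 with both. On the lower side AF067063 stood at 2.73, 1.19, 0.78 and 0.76 in the same order, so that the untreated array was above the other 3. Ifi44 and AF067063 rest on 1 probe each. These genes were singled out after their values were seen.

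The lysyl oxidase family itself was examined next. The added protein carries no RNA, so the Loxl2 probes read the cells' own transcript. Below are the sequences of 2 of its 3 probes, which show what was hybridised, with mm9 positions.
Loxl2 probe, chr14:70090017-70090076, plus strand: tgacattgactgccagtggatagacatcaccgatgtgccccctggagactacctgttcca
Loxl2 probe, chr14:70092141-70092200, plus strand: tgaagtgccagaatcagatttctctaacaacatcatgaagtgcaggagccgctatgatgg
The first probe stood at 3.58 untreated, 3.69 with LOXL2, 3.32 with BMP2 and 3.30 with both, and the second at 3.05, 3.27, 2.75 and 2.72. LOXL2 differences over the 3 probes were 0.11, 0.22 and 0.05, and with BMP2 present all 3 were between -0.07 and -0.02. Both arrays with BMP2 lay below both without it at every Loxl2 probe. None of the 5 family members differed by 1.2-fold, and the median was 0.108. Lox, the founding lysyl oxidase, differed by 0.05, Loxl1 by -0.05, Loxl3 by 0.13 and Loxl4 by 0.20 (its probes at 0.15 and 0.26). In the BMP2 pair Loxl4 was the furthest of the family too, at 0.28.

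Genes for the substrates and the collagen machinery did not differ by 1.2-fold. This held for all 22 collagen genes (median 0.036, from -0.15 for Col8a1 to 0.22 for Col24a1), all 17 genes of collagen modification and export (median 0.027) and all 17 elastic fibre genes (median -0.054, from -0.20 for Ltbp1 to 0.19 for Fbn1). The corresponding share of all genes past 1.2-fold was 5.36% higher and 5.73% lower. Col1a1 and Col1a2, the type I collagen chains, differed by 0.00 each, and Col3a1 by 0.07. Plod2, the telopeptide lysyl hydroxylase, differed by 0.11. Among 21 measured matrix proteases 1 was past 1.2-fold, Mmp3 (stromelysin), with levels of 0.10 untreated, 0.64 with LOXL2, -1.37 with BMP2 and -1.49 with both.

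Interferon-stimulated genes gave the highest median of the 42 gene lists examined. The lists and their members were chosen with earlier results of these data known, so their ranks and counts are descriptions. Interferons bind surface receptors and activate transcription factors such as STAT2 and IRF9, which bind response elements in the promoters of antiviral genes. Of 41 listed genes 39 were measured, 36 of them higher with LOXL2 (50.7% of all genes were higher by any amount), and the median difference was 0.295 against 0.002 over all genes (0.19 with normexp correction). At least 1.2-fold higher were 20 and lower 0, beside 5.36% and 5.73% of all genes. At least 1.5-fold higher were 3 (Mx1, Ifi44 and Rsad2), beside 0.682% of all genes. With normexp correction they stood at 0.563, 0.69 and 0.175, so of these Ifi44 alone stayed past 1.5-fold. Their differences in the BMP2 pair were -1.82, -0.017 and -0.74. For the whole list the median in the BMP2 pair was -0.017, with 0 at least 1.2-fold higher and 5 lower. The shares of all genes in that pair were 5.07% and 4.5%.

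The ubiquitin-like protein gene Isg15 stood at 3.58 untreated, 4.04 with LOXL2, 4.16 with BMP2 and 4.23 with both, and its probes gave 0.44 and 0.48. The virus-tethering protein gene Bst2 stood at 3.53, 4.01, 4.12 and 4.19. The deconjugating enzyme and feedback inhibitor Usp18 stood at 1.01, 1.47, 2.05 and 2.19. In all 3 the untreated array was the low one. This order, the untreated array below the other 3, was found in 21 of the 39 genes (53.8%), against 30.5% of all genes. It needs a level higher with LOXL2, which 36 of the 39 genes and 50.7% of all genes had. These shares therefore restate the LOXL2 difference in part. Counts of the order beside genes higher with LOXL2 were 21 and 36 in the list, and 4881 and 8103 over all genes. The LOXL2 and BMP2 arrays share the untreated array as their control, and a property of that single culture or array cannot be told apart from an effect of LOXL2.

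By role, the 4 OAS and OASL genes, whose products are or resemble synthases of the RNase L activator, differed by 0.17 to 0.52. Oas1a gave 0.58 and 0.46 at its probes, which close paralogs could also reach. Of the IFIT genes, which bind foreign RNA, Ifit1 and Ifit3 differed by 0.46 and 0.47 and Ifit2 by 0.02. The 7 GTPase genes ranged from 0.08 for Gbp2 to 1.09 for Mx1. Among transcription factors Irf7 differed by 0.54, Stat2 by 0.35 and Irf9 by 0.23. The 4 nucleic acid sensors Ddx58, Ifih1, Dhx58 and Zbp1 differed by 0.14 to 0.25, so none was past 1.2-fold. With no filter on dim probes, which brings in further probes, Ifih1 was at 0.57. The antigen-processing genes Psmb8, Tap1 and Psmb9 gave 0.02, -0.08 and -0.21, which places them at the low end of the list.

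Some members varied more widely across the 4 arrays. Mx1, an antiviral GTPase with a dim probe, had intensities of 44.0 untreated, 95.8 with LOXL2, 60.7 with BMP2 and 17.6 with both. Cxcl10, an interferon-induced chemokine, had levels of -0.98, -0.44, -0.06 and -2.31 in that order. For both, the array with BMP2 and LOXL2 together was the lowest of the 4. With no filter on dim probes, which brings in further probes, the Cxcl10 difference was 0.19 in place of 0.54. Upstream genes lay closer to 0, with a median of 0.058 over 17 measured receptors, kinases, sensors and regulators. Past 1.2-fold was 1 of them (Irf8, a dim probe, at 0.33), beside 5.36% of all genes higher and 5.73% lower. Ifnb1, the interferon beta gene, was not well above background on both arrays. Nor were Tnf, Il1b and Csf3 in the list of NF-kB targets and chemokines, whose median was 0.076.

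Interferon-stimulated genes are also high in macrophages, and their markers are given beside them. Of 20 macrophage and leukocyte markers 18 were measured, with a median difference of -0.081, 6 higher and 12 lower (50.7% of all genes were higher). The summed linear level (1 = the 75th percentile) was 80.7 untreated and 84.7 with LOXL2. Fcgr1 and Cd163 were not well above background on both arrays, while Csf1r differed by -0.12, Adgre1 (F4/80) by -0.08, Ptprc (CD45) by 0.32 at a dim probe and the mannose receptor gene Mrc1 by -0.49, the furthest of the list. Those past 1.2-fold were 1 higher (Ptprc) and 2 lower (Mrc1 and C1qb), beside 5.36% and 5.73% of all genes. The part of macrophages in the interferon result was not tested. In bulk RNA, fewer cells of a type and less RNA per cell cannot be told apart.

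Promoters of the interferon list were searched for GAAANNGAAA, the core of the interferon-stimulated response element, which also matches sites of single IRF factors. The search covered the 250 bases before each start site on both strands in the RefSeq promoter table (GRCm38.p6), and the motifs were chosen after the expression values were seen. Of 41 listed genes 30 had a promoter in the table, and 15 of these held the motif, against 3.46% of 27025 genes. The list was made of genes of the interferon response, so this share describes the list and not LOXL2. Among measured genes the median difference was 0.463 for 13 with the motif and 0.171 for 15 without. The following stretches come from 7 of the genes with the motif. A match is in capitals, as its reverse complement where it lies on the other strand. It is the match nearest the start site, except in Oas1a and Bst2, where an overlapping match lies nearer. The stretches are written along the gene's strand.
Isg15, chr4:156200850-156200909, minus strand: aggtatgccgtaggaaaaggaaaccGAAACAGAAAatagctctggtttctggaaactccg
Ifit1, chr19:34640779-34640838, plus strand: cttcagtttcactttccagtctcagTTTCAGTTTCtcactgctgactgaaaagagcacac
Ifit3, chr19:34583382-34583441, plus strand: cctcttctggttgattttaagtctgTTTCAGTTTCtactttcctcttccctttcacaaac
Oas1a, chr5:120907526-120907570, minus strand: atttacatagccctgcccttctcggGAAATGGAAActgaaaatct
Bst2, chr8:71537568-71537627, minus strand: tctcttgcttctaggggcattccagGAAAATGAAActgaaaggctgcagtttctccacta
Rsad2, chr12:26456538-26456597, minus strand: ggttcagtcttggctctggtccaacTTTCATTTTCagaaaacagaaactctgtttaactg
Cxcl10, chr5:92349068-92349127, minus strand: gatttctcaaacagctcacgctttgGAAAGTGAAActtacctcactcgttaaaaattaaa
The match in capitals began 66 bases before the start site in Isg15, 20 in Oas1a and 213 in Cxcl10. In Isg15 it overlaps another match that begins further upstream. A match describes letters in a window and is not evidence of binding here.

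Genes of the amino acid response and the unfolded protein response had the next highest median. In the first, uncharged tRNA or other stress leads through phosphorylated eIF2α to translation of ATF4, which activates amino acid synthesis and transport genes. In the second, unfolded protein in the endoplasmic reticulum activates chaperone genes through ATF6 and XBP1. All 23 genes were measured and all 23 were higher with LOXL2, where 50.7% of all genes were. They ran from 0.10 for Sesn2 to 0.57 for Slc7a11, with a median of 0.285. The list was chosen with earlier results of these data known, so the count is a description. At least 1.2-fold higher were 14, beside 5.36% of all genes, and 0 reached 1.5-fold. In the BMP2 pair 21 of 23 were higher with LOXL2 (51.5% of all genes in that pair), but the median was 0.07. Past 1.2-fold was 1, beside 5.07% of all genes higher and 4.5% lower in that pair.

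The 6 genes of amino acid synthesis and transport had a median of 0.31. Asns, asparagine synthetase, stood at 5.55 untreated, 5.96 with LOXL2, 6.33 with BMP2 and 6.36 with both. Psat1, a serine synthesis enzyme, stood at 2.29, 2.60, 2.10 and 2.09, with differences of 0.30 and 0.32 at its probes. The serine pathway gene Phgdh differed by 0.26 (0.25 and 0.27), the mitochondrial enzyme gene Shmt2 by 0.32 and the cystine transporter gene Slc7a11 by 0.57. Of the list's genes Psat1 was the exception to a common order: 22 of 23 (95.7%) had their lowest level on the untreated array, against 30.5% of all genes. That order needs a level higher with LOXL2, which all 23 had. Over all genes it was found in 4881, beside 8103 that were higher with LOXL2.

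The 8 regulators and other ATF4-linked genes had a median of 0.24. Trib3, a pseudokinase, stood at 4.72 untreated, 5.17 with LOXL2, 6.68 with BMP2 and 6.76 with both. Chac1, a glutathione-degrading enzyme, differed by 0.37, and the proapoptotic factor Ddit3 (CHOP) by 0.30. Atf4 itself differed by 0.17 (0.16 and 0.19 at its probes). The 9 chaperones and related genes of the endoplasmic reticulum had a median of 0.28 and a narrow range, from 0.19 for Hsp90b1 to 0.34 for Sdf2l1. Hspa5 (BiP), the central chaperone, stood at 7.92, 8.13, 8.25 and 8.31, and Xbp1 at 5.75, 5.87, 5.95 and 6.05. Outside the list, Xpot, a tRNA exporter, gave 0.37 and 0.40 at its probes, and Fgf21, a hormone gene of the FGF list, differed by 0.42. Both were named after their values were seen.

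In the promoters of 21 of the 23 genes, 6 held TGATGNAA, the core of the C/EBP-ATF response element to which ATF4 binds, against 3.91% of all genes in the table. The endoplasmic reticulum stress element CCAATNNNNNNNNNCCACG was found in 4, against 0.13% of all genes. As for the interferon list, these shares describe the listed genes and not LOXL2. Both strands were searched over the same 250 bases, and no gene of the list held both motifs. The stretches for TGATGNAA come first.
Asns, chr6:7693210-7693257, minus strand: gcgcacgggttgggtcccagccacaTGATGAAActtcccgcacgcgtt
Chac1, chr2:119351024-119351081, plus strand: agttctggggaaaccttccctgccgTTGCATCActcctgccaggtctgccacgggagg
Slc7a11, chr3:50443628-50443685, minus strand: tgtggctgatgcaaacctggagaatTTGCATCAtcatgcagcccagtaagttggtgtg
Atf3, chr1:191183411-191183468, minus strand: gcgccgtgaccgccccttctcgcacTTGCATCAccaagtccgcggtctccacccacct
The 4 genes with the stress element follow, all of them chaperones or related proteins of the endoplasmic reticulum.
Hspa5, chr2:34772000-34772068, plus strand: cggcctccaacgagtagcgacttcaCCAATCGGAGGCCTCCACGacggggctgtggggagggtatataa
Hsp90b1, chr10:86705508-86705576, minus strand: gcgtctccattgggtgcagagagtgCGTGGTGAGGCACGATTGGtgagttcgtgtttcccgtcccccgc
Creld2, chr15:88819495-88819563, plus strand: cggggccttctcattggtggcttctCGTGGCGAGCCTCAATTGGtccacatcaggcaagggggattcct
Dnajc3, chr14:118937802-118937870, plus strand: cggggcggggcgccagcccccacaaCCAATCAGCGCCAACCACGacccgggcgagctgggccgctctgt
Among the measured genes, the median difference was 0.345 for the 6 with TGATGNAA and 0.278 for the 15 without. It was 0.229 for the 4 with the stress element and 0.303 for the 17 without, so the order was the opposite one.

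Cell cycle genes gave the lowest median of the 42 lists, which were chosen with earlier results of these data known. Cells entering division express replication genes under E2F control and then genes of mitosis. Of 33 genes 32 were measured, 28 of them lower with LOXL2 (50.7% of all genes were higher by any amount), with a median of -0.212. At least 1.2-fold lower were 11, beside 5.73% of all genes, and 0 higher, beside 5.36%. The BMP2 pair gave a median of -0.112, with 26 lower, where 51.5% of all genes were higher. At least 1.2-fold lower in that pair were 4, beside 4.5% of all genes. On control RNA scaling the median was -0.08 while that of all genes was 0.13.

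All 15 mitosis genes and all 7 replication genes in the list were lower, while 50.7% of all genes were higher by any amount. In mitosis the range was -0.44 to -0.14 and the median -0.26, and the BMP2 pair gave a median of -0.20. The proliferation marker Mki67 stood at 1.40 untreated, 1.13 with LOXL2, 0.90 with BMP2 and 0.59 with both, with probes at -0.29 and -0.26. The gene for cyclin A2, Ccna2, read intensities of 1420, 1170, 1070 and 891 in the same order, a LOXL2 difference of -0.30 in both pairs. For both, the array with BMP2 and LOXL2 together was the lowest. The spindle motor gene Kif11 differed by -0.44 and the survivin gene Birc5 by -0.38 (3 probes, -0.41 to -0.25).

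Replication genes had a median of -0.23, against 0.01 in the BMP2 pair. Mcm5, a subunit of the replicative helicase, stood at 0.86 untreated, 0.33 with LOXL2, 0.04 with BMP2 and -0.06 with both. Mcm3, of the same complex, differed by -0.28 (-0.31 and -0.25), and by 0.08 in the BMP2 pair. Of the 5 inhibitor genes 3 were higher and 2 lower, and in the BMP2 pair all 5 were lower (median -0.17). Cdkn1a (p21) differed by 0.12 (3 probes, 0.07 to 0.53), Cdkn1b (p27) by 0.07, Cdkn2a by 0.04, Cdkn2b by 0.00 and Cdkn1c (p57) by -0.17. In 25 of the 32 genes (78.1%) the untreated level was the highest of the 4 arrays, against 28.1% of all genes. That order needs a level lower with LOXL2, which 28 of the 32 had, while 50.7% of all genes were higher. These shares therefore restate the LOXL2 difference in part. Differences in cell number per phase and in RNA per cell cannot be told apart in these bulk samples.

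**Figure D3:**
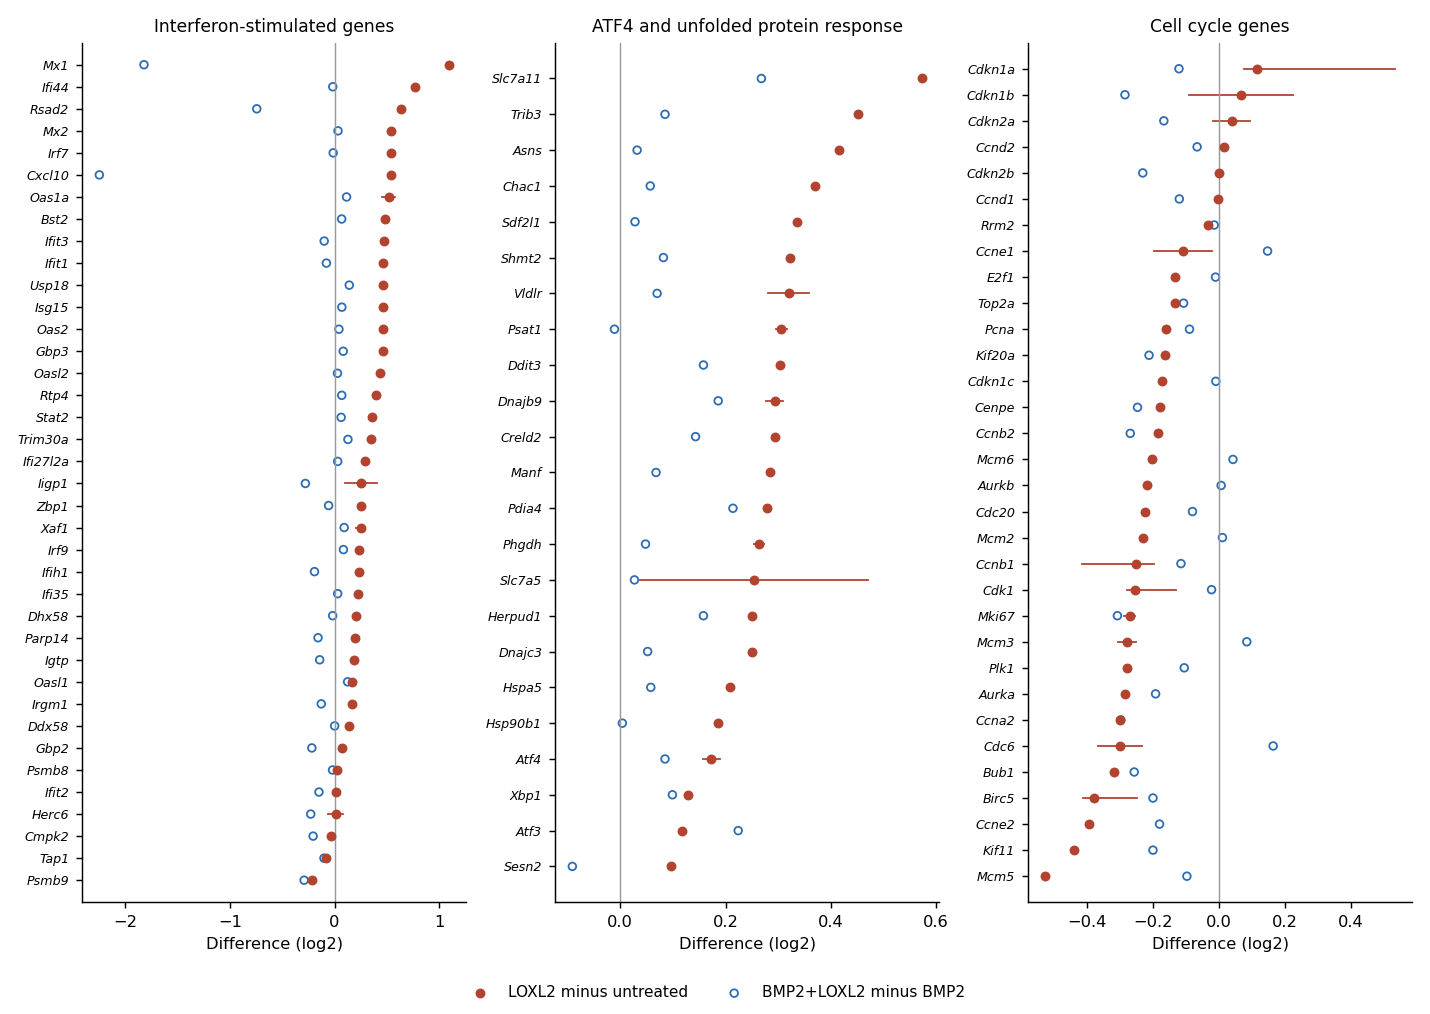
Log2 difference of measured genes in 3 lists (1 gene of the first list is not drawn), for LOXL2 minus untreated (filled red, with a line over its probes) and for BMP2 plus LOXL2 minus BMP2 (open blue, where both arrays were above background). The pairs of arrays share no array. The red points lie above 0 for 35 of 38, 23 of 23 and 4 of 32 genes drawn, from left to right.

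Osteoblast genes lay near 0 as a group. Of 22 measured matrix genes, with a median of 0.057, 2 were at least 1.2-fold higher and 2 lower, beside 5.36% and 5.73% of all genes. Spp1 (osteopontin) stood at 3.95 untreated, 4.37 with LOXL2, 4.93 with BMP2 and 4.92 with both. Ibsp (bone sialoprotein) stood at 1.42, 0.96, 3.57 and 3.63, and its probes gave -0.41 and -0.50. These mineral-binding phosphoproteins thus differed in opposite directions, and for Ibsp the LOXL2 array was the lowest of the 4. The phosphatase gene Phospho1 differed by 0.71 at a dim probe, and Ifitm5 by -0.27. Osteocalcin, Bglap, differed by 0.10, although near-identical copies of it may hybridise to the same probe, and Alpl by 0.09. Among 17 transcription factors, with a median of 0.03, Runx2 differed by -0.04 (3 probes, -0.09 to 0.02) and Sp7 by 0.17.

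Cartilage genes had a median of 0.127 over 20 measured, with 5 at least 1.2-fold higher and 1 lower, beside 5.36% and 5.73% of all genes. Col11a2, a minor cartilage collagen chain, stood at -1.29 untreated, -0.83 with LOXL2, 2.08 with BMP2 and 3.01 with both. Prg4 (lubricin) stood at 0.86, 1.32, 3.16 and 3.47. Ucma, a secreted cartilage protein, stood at 1.25, 1.66, -0.06 and 1.11 in the same order, so it was lower with BMP2 alone than untreated, as Matn4 was (2.13 and 0.26). Cnmd (chondromodulin) differed by 0.49. The proteoglycan Acan differed by 0.32 and Col2a1 by 0.24, while Matn4 differed by -0.29 (-0.31 and -0.28 at its probes). In the BMP2 pair the list's median was 0.71, with 18 of 23 at least 1.2-fold higher, beside 5.07% of all genes in that pair. The difference between these medians was not tested.

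Most other lists linked to LOXL2 or BMP2 lay near 0. Their counts past 1.2-fold stand beside 5.36% of all genes higher and 5.73% lower. By any amount, 50.7% of all genes were higher. LOXL2 is known in tumours for stabilising Snai1 protein. Snai1 differed by 0.06, Snai2 by 0.10, Twist1 by -0.08, Zeb1 by 0.00 and Vim by -0.06, and 1 of 14 genes in that list was past 1.2-fold (Krt8, dim, at -0.58). Genes of BMP ligands and receptors had a median of -0.10 with 12 of 18 lower, and the 2 at least 1.2-fold lower were Bmp3 (-0.40) and Bmp6 (-0.28), both dim. BMP-SMAD target genes had a median of -0.010, and 1 of 20 was past 1.2-fold, the BMP antagonist Grem1 at 0.39. TGF-beta and contractile genes had a median of 0.035 with 0 of 19 past 1.2-fold. In the Wnt list the median was -0.041 and 2 of 34 were past 1.2-fold, the transcription factor gene Lef1 at 0.33 and the secreted inhibitor gene Sfrp2 at -0.39. Sfrp2 stood at 5.77 untreated, 5.38 with LOXL2, 0.89 with BMP2 and 0.12 with both. Integrin genes had a median of 0.027, with Itga4 at 0.32. Reference genes had a median of 0.001, from -0.08 to 0.09.

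Of the 42 lists 35 had a median within 0.1 of 0. Markers of other cell types were among them except for chondrocytes and lymphocytes, the latter with 5 of 11 genes measured and a median of -0.129. Osteoclast genes had a median of -0.001 over 8, endothelial genes -0.010 over 8, skeletal muscle genes -0.040 over 13, tendon and fibroblast genes 0.016 over 14 and adipocyte genes -0.026 over 8.

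**Figure D4:**
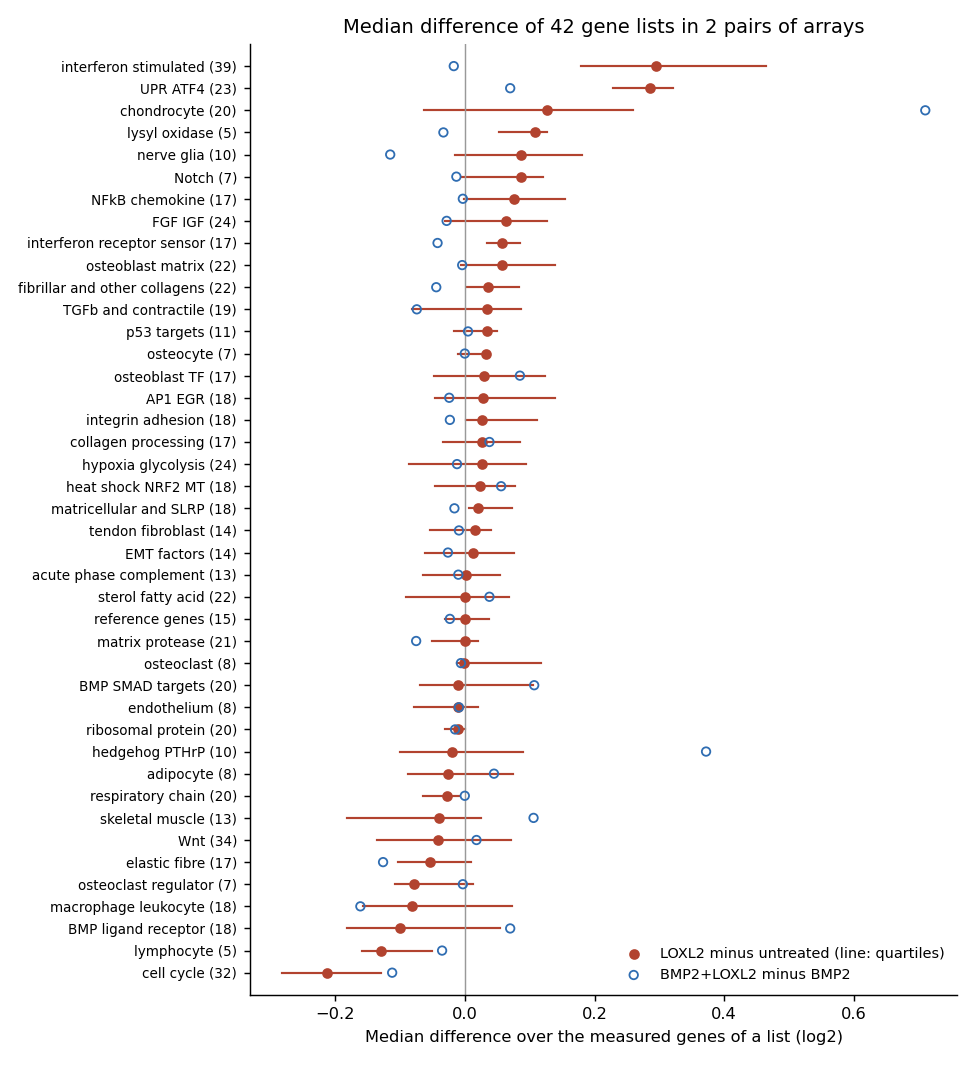
Median log2 difference over the measured genes of 42 lists (number of genes in brackets), for LOXL2 minus untreated (filled red, line from the first to the third quartile) and for BMP2 plus LOXL2 minus BMP2 (open blue). Red medians run from -0.212 for cell cycle genes to 0.295 for interferon-stimulated genes.

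A lower threshold, added after the data were seen, lists genes whose probes all passed it. With every probe at least 1.2-fold, 46 of the 4686 genes were higher (0.982%) and 28 lower (0.598%). Of single probes, 8.01% were at least 1.2-fold higher and 7.51% lower, so 2 unrelated probes of a gene can both pass. How many of these genes passed in that way was not tested. Probes overlapped in 3 of the 46 and 5 of the 28. Slc5a3 stood at 0.42 untreated, 0.96 with LOXL2, 0.82 with BMP2 and 1.45 with both, with probes at 0.54 and 0.55. Its difference in the BMP2 pair, 0.63, was of the same size. Other higher genes with a clear signal were the citrate transporter gene Slc13a5 (0.47), the glucose transporter gene Slc2a6 (0.39) and the secreted glycoprotein gene Lgals3bp (0.28).

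On the lower side, Hmgn2, a nucleosome-binding protein, had the most probes. Its 4 probes gave -0.40 to -0.33, with levels of 1.81 untreated, 1.45 with LOXL2, 1.41 with BMP2 and 1.05 with both, and the BMP2 pair gave -0.33. Some of these probes overlap by 17 bases. Dlk1, a Notch-like inhibitor of mesenchymal differentiation, stood at 1.97, 1.60, 0.27 and 0.49. Tk1, the S-phase thymidine kinase, gave -0.34 at both probes. Igfbp3, an IGF-binding protein, differed by -0.30 and Sostdc1, a secreted BMP and Wnt antagonist, by -0.51, the latter at intensities of 281 and 199.

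**Figure D5:**
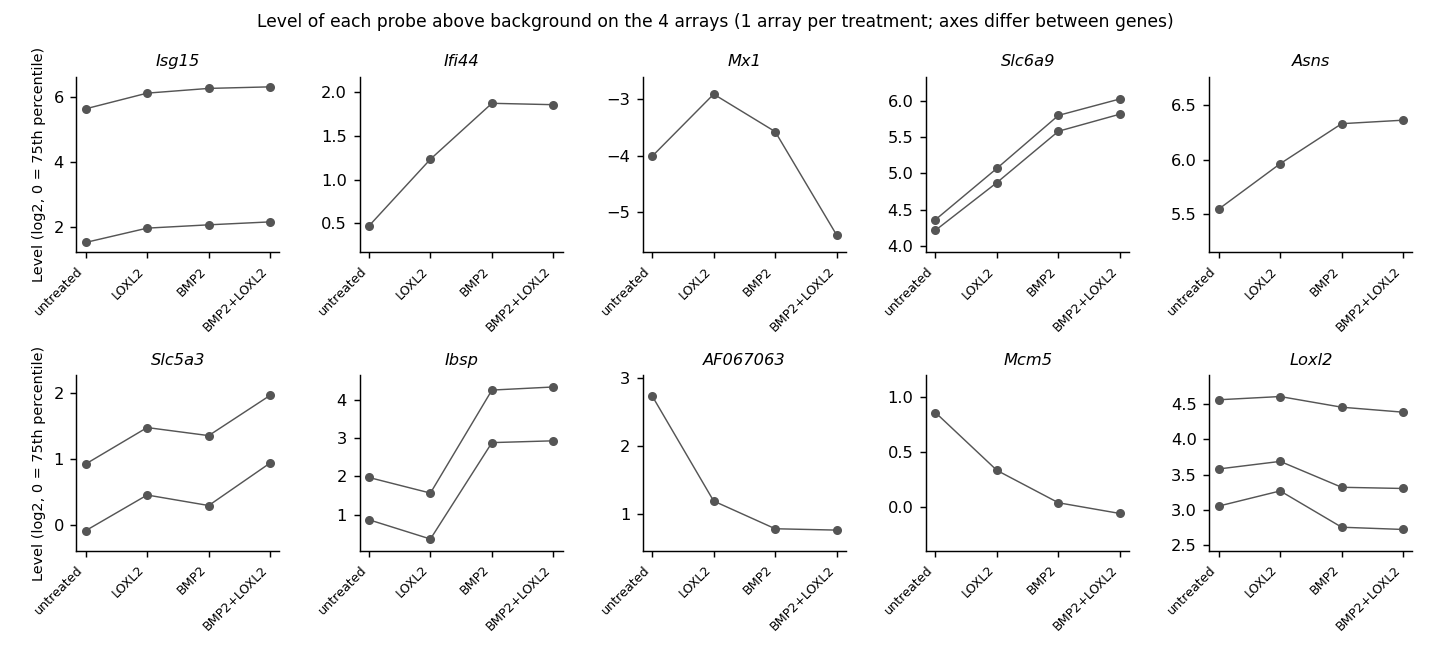
Level (log2, 0 = the 75th percentile of the array) of each probe above background for 10 genes on the 4 arrays, 1 array per treatment, with lines joining the points of a probe and vertical axes that differ between genes. Isg15, Ifi44, Slc6a9 and Asns are lowest on the untreated array, AF067063 and Mcm5 highest there, and Ibsp lowest with LOXL2.

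Genes with a single probe above background supplied the extremes, at low signal. With normexp correction 4 of the 8 largest higher differences and 8 of the 8 largest lower ones were past 1.5-fold, at 0.39 to 1.25 and -1.60 to -0.81. The furthest on the higher side was Zfand4, a zinc-finger protein gene, with intensities of 20.3 untreated, 145 with LOXL2, 28.4 with BMP2 and 24.2 with both, a difference of 2.81 (1.25 with normexp). The LOXL2 array stood alone, and the BMP2 pair gave -0.27. Others on this side were Gm4316 (1.60), Igsf1 (1.38), Tmem178b (1.30), A930033H14Rik (1.30), D630003M21Rik (1.25) and Tnni1 (1.19).

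On the lower side were Wdr76 (-2.87), Gm1096 (-2.56), Slc39a9 (-2.45), Sh3rf2 (-2.42), A3galt2 (-2.38), Pik3c2g (-2.30), Vmn2r67 (-2.15) and Itpk1 (-1.97). Wdr76, which encodes a WD-repeat protein, read 108 untreated, 15.0 with LOXL2, 15.4 with BMP2 and 9.89 with both. Its other probe, not well above background on any array, differed by 0.05, and the gene's value with no filter on dim probes was -1.41. Without that filter, which brings in further probes, A3galt2 was at -1.25, Pik3c2g at -1.11 and D630003M21Rik at 0.73. Itpk1, an inositol phosphate kinase with the brightest signal of these 8, read 443, 115, 182 and 211. In both the untreated array was the high one.

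Some genes were above background on 1 of the arrays only and have a bound in place of a difference. Of 22228 genes with a symbol on the array, 386 were above it with LOXL2 only, 97 of them by at least 1.5-fold. Above it untreated only were 235 genes, 115 by at least 1.5-fold. The LOXL2 array also had more spots above background (62.2% against 61.3%) and a lower lowest intensity above it (12.9 against 13.9). Serpina5, a serine protease inhibitor, was at least 19.9-fold higher, with an intensity of 281 with LOXL2 against 3.27 untreated, 19.3 with BMP2 and 3.49 with both. Tac4, a tachykinin precursor, was at least 10.1-fold higher, followed by E230016K23Rik (9.79), Vmn1r181 (8.70), Trpc5 (8.35) and Olfr1463 (8.17). At least 12.5-fold lower was A930038B10Rik, followed by Sult2a7 (11.3), Mmp1b (8.92), 2810429I04Rik (8.01), Pate12 (7.42) and Olfr392 (7.18). None of these 12 exceeded an intensity of 281 on either array.

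LOXL2 differences without and with BMP2 were set side by side over 31504 probes above background on all 4 arrays. They correlated at r = 0.06 (rho = 0.10), a description across probes that share no array between the pairs. At least 1.5-fold higher in both were 17 probes, which is 4.87% of those higher without BMP2 and 6.59% of those higher with it, where 0.819% of the 31504 probes were higher with BMP2 and 1.11% without. Lower in both were 21, or 6.56% and 7.05%, beside 0.946% and 1.02% of all. In opposite directions past 1.5-fold were 26, which is 3.89% of those past it without BMP2 and 4.68% with it. Beside them stand the same shares of all probes, 0.819% higher and 0.946% lower with BMP2 and 1.11% and 1.02% without. Calls in both pairs thus exceeded these shares in the same and in opposite directions. The 3 dimmest bins held 88.4% of the 799 probes past 1.5-fold without BMP2. Whether dim probes account for the overlap was not tested.

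The one model with a residual, an additive fit of BMP2 and LOXL2 over all 4 arrays, tests LOXL2 averaged over both BMP2 states. In limma 0 of 15534 genes passed an adjusted p under 0.05 (0% called), with a smallest adjusted p of 0.685, and 1129 genes (7.27%) had an unadjusted p under 0.05, 539 higher and 590 lower. With limma's trend and robust settings 1 gene passed, Slco4a1, an organic anion transporter gene, at 0.84 ± 0.06 (fitted log2 change ± SE, adjusted p = 0.0192). Its levels were -1.03 untreated, -0.24 with LOXL2, 0.92 with BMP2 and 1.80 with both. It was higher with LOXL2 in both pairs, by 0.79 and 0.88. Each gene had 1 residual degree of freedom, which is the interaction of the proteins. A gene whose LOXL2 difference changes with BMP2 therefore has a larger error in this fit.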

How the data were processed

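Total RNA from 4 cultures was hybridised to 4 single-colour arrays. The deposited scanner files give an intensity per spot, which the authors extracted with Feature Extraction (version 10.7.3.1 in the submitters' processing notes). Background, per the file headers, was subtracted, spatial trends were removed, surrogate values replaced signals not above background, and probe positions are on mm9. No scaling between arrays is recorded there. The deposited value table, also an intensity, served as an alternative.

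From these, log2 processed signals minus the array's 75th percentile over non-control spots were averaged over the spots of a probe, without flagged spots. Between 61.3% and 62.2% of spots were well above background on the arrays compared. Of 55681 probes 31237 matched 1 current symbol through the RefSeq table. Probes had to be well above background on both arrays. The LOXL2 difference has no test with 1 array per group. The p-values come from limma 3.58.1 (R 4.3.3, with lmFit, eBayes and Benjamini-Hochberg) with additive terms. They set the LOXL2 effect against 1 residual per gene, the interaction, which technical spread and a real interaction can both widen. Simulated data without an interaction were used to check that the fit returned known effects. That check did not cover the p-values. For a gene above background on 1 array only, the bound sets the bright signal against the higher of the dim probe's value and the lowest signal above background on that array.

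Genes were named by rule: genes with 2 or more probes all past 1.5-fold, the 8 largest single-probe differences and 6 largest bounds each way, and up to 4 members of each list with the largest difference. A few genes these rules name are not reported here. Other genes named by role were chosen after their values were seen. Members, lists, thresholds and motifs were chosen with earlier results of these data known. Alternatives covered background correction, scaling, filters, flagged spots, the probe used and the fold. Figures were drawn with matplotlib 3.10.9 in Python 3.11.15.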

Additional observations from a re-analysis of the deposited data

Results flagged for a closer look

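4 named genes differed by at least 1.5-fold with LOXL2 on both pairs of arrays but in opposite directions, and none of these contrasts was tested, since each pair holds 1 array per treatment. Mx1 was higher by 1.09 without BMP2 and differed by -1.82 with it. Rsad2, an antiviral enzyme, gave 0.63 and -0.74. Saa3, an acute-phase gene, gave 0.74 and -1.61, with intensities of 40.6 untreated, 69.3 with LOXL2, 610 with BMP2 and 204 with both. Vmn2r67, a vomeronasal receptor gene, gave -2.15 and 1.86, with intensities of 71.8, 16.5, 18.1 and 67.5. Each rests on 1 probe, and the cause was not tested.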

How the results depend on the processing

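The counts of probes past 1.5-fold, 398 higher and 401 lower, were within 1.5 times of these values under median scaling, quantile normalization, retained flagged spots and the deposited value table. They were 32 and 54 with normexp background correction, 83 and 66 with a signal of at least 50 required, 3522 and 3400 with no filter on dim probes, 45 and 80 at 2-fold, 2625 and 2461 at 1.2-fold, and 845 and 219 on control RNA scaling. The last pair of settings was added after seeing the data. The interferon median was 0.188 with normexp and 0.425 on control RNA scaling. On that scaling the medians were 0.415 for the ATF4 and unfolded protein list, -0.082 for cell cycle and 0.238 for lysyl oxidases, each moved with all genes. The additive fit called 1 gene with trend and robust settings and 0 under the other settings run. Of 1053 recomputed values of 119 single genes, 883 moved by less than the spot SD, 170 by more, and 0 genes past 1.5-fold changed sign. No paired analysis was possible because each treatment has 1 array and no replicate numbers; the additive fit compares LOXL2 within each BMP2 state. Dim signal and the number of arrays limit the precision.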
